A study of Homo sapiens with 12 samples.

Results

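PMEPA1 and SKI, which encode 2 inhibitors of TGF-beta signalling, together carried 613 of the 26351 NONO eCLIP peaks in 22Rv1 cells. Their peaks were taken by the gene name that the authors' annotation gives each peak. PMEPA1 had 342 peaks, which placed it at rank 6 of 1689 gene names with a peak, and SKI had 271, at rank 11. NONO binds RNA in the nucleus and is a core protein of paraspeckles, and 22Rv1 is a human prostate cancer line. In eCLIP, UV light crosslinks protein to RNA, an antibody pulls the protein down, and the attached RNA is sequenced together with an input of the same lysate. The cells were given 20 µM SKBG-1(R) in 0.04% DMSO, 20 µM SKBG-1(S) in 0.04% DMSO, or 0.04% DMSO alone, each for 4 h. SKBG-1(R) and SKBG-1(S) are stereoisomers that differ, as their names say, at a stereocentre; the study's subject is small molecules directed at NONO. Each treatment had 2 immunoprecipitations, each with its own input, which gave 6 peak lists. Nothing in the labels ties the replicates to separate cultures, and the p-values therefore measure a spread between lists that may be technical.

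TGF-beta ligands bind receptor serine/threonine kinases, which phosphorylate the transcription factors SMAD2 and SMAD3. These join SMAD4, enter the nucleus and switch target genes on or off. PMEPA1 is a membrane protein that is itself induced by TGF-beta; it holds receptor-activated SMADs away from the receptor and binds NEDD4-family ubiquitin ligases, so it closes a negative feedback loop. In prostate cells it is also an androgen-induced gene. SKI is a nuclear protein that binds SMAD complexes on DNA and recruits co-repressors, and TGF-beta signalling leads to its degradation.

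PMEPA1 (ENSG00000124225.15) lies on the minus strand at chr20:57648392-57711536 of GRCh38 and spans 63.1 kb. SKI (ENSG00000157933.9) lies on the plus strand at chr1:2228695-2310119 and spans 81.4 kb. Both genes have a very long intron 1, and nearly all of their peaks lay in it. In PMEPA1, intron 1 of transcript ENST00000341744.7 (chr20:57659698-57709473, 49776 nt) makes up 78.8% of the gene and held 311 peaks, 90.9% of the total. In SKI, intron 1 of ENST00000378536.4 (chr1:2229736-2302977, 73242 nt) makes up 89.95% of the gene and held 269 peaks, 99.3% of the total. The density was 6.25 peaks per kb in PMEPA1 intron 1 and 3.67 peaks per kb in SKI intron 1, counted over all 6 lists. PMEPA1 intron 2 held 25 peaks, or 3.87 per kb, all from replicate 2 lists: 22 with SKBG-1(R), 1 with SKBG-1(S) and 2 with DMSO. No peak had its middle in PMEPA1 exons 2 to 4 or in SKI exons 2 to 7, which include the 4207 nt and 3543 nt last exons with the 3′ untranslated regions. A list holds only peaks above the authors' minimum, so a stretch without a peak is not shown to be unbound.

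Few of the peaks fell in sequence that the GENCODE transcripts or the RefSeq promoter table hold. From that sequence 4 stretches are shown, because they place NONO peaks against exons and starts. The capitals mark the stretch under a peak or, where several lists had a peak there, the stretch common to their peaks. The SKI sequence begins at the start codon in exon 1 (chr1:2228767-2228916, plus strand), and its capitals are the coding part common to the peaks of both SKBG-1(R) lists, whose remainder lies mostly in the 5′ untranslated region.
SKI start of the coding sequence: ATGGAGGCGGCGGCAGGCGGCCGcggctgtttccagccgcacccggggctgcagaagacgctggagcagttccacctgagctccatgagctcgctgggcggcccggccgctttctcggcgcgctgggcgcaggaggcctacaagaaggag
The capitals were 82.6% G and C, against 71.3% for the whole stretch of 150 nt. A short noncoding SKI exon within intron 1 (chr1:2247996-2248071, plus strand, 76 nt) lay under peaks of all 3 replicate 2 lists.
SKI noncoding exon in intron 1: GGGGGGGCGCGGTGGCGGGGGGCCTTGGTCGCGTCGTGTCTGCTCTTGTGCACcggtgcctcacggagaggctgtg
It opens with 7 consecutive G, and the exon as a whole, all of it under the peak of SKBG-1(R) replicate 2, was 73.7% G and C. The coding part of PMEPA1 exon 1 (chr20:57709474-57709582, minus strand) held a peak of SKBG-1(R) replicate 2.
PMEPA1 coding part of exon 1: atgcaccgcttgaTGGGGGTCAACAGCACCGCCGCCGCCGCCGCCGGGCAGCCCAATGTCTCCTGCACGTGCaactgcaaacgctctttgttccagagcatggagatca
The peak was 74.6% G and C, against 62.4% for the whole stretch, and includes a run of GCC repeats. Upstream of an internal PMEPA1 start site in the RefSeq table (GRCh38.p14, chr20:57690687-57690936, minus strand) lay a peak of DMSO replicate 2.
PMEPA1 upstream of an internal start: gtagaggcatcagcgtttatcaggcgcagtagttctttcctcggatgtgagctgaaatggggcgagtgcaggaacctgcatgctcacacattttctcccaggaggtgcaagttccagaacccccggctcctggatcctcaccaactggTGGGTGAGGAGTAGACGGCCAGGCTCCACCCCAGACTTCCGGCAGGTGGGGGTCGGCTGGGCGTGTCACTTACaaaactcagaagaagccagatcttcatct
The peak was 67.1% G and C, against 56.8% for the 250 nt stretch. In the other 3 sequences the capitals were richer in G and C than the whole stretch. For scale, the median over 35116 RefSeq promoter windows of 300 nt was 58.7% G and C. These 4 stretches are a part of the sequence at hand and are a description only. Other exonic peaks, among them those in the 5′ untranslated part of PMEPA1 exon 1, are not shown. The intronic sequence under most peaks was not analysed here.

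PMEPA1 peaks were present in every list. There were 16 and 237 in the SKBG-1(R) lists, 3 and 25 in the SKBG-1(S) lists, and 4 and 57 in the DMSO lists, replicate 1 before replicate 2. In all 3 treatments replicate 2 held the more peaks, and the lists as a whole differed the same way. List lengths, replicate 1 first, came to 1953 and 14847 with SKBG-1(R), 1237 and 3967 with SKBG-1(S), and 669 and 3678 with DMSO. Read counts were not used here, so the depth of each library is unknown and the length of a list sets its precision. Counts were therefore set against the list, as peaks per 10000 peaks, with 95% Wilson intervals that cover counting error only.

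On that scale PMEPA1 had 81.9 (interval 50.5 to 133) and 159.6 (141 to 181) peaks per 10000 in the SKBG-1(R) lists. It had 24.25 (8.25 to 71.1) and 63.0 (42.7 to 92.9) in the SKBG-1(S) lists, and 59.8 (23.3 to 153) and 155 (119.8 to 200.2) in the DMSO lists. The SKBG-1(S) values were the lowest of each replicate number, and the SKBG-1(R) range overlapped most of the DMSO range. The means were 120.8 ± 54.9 with SKBG-1(R), 43.6 ± 27.4 with SKBG-1(S) and 107 ± 67.3 with DMSO (SD, n = 2 each). The value in replicate 2 was 1.95 times that in replicate 1 with SKBG-1(R), 2.60 times with SKBG-1(S) and 2.59 times with DMSO.

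SKI peaks were nearly confined to the replicate 2 lists. SKI had 1 and 214 peaks with SKBG-1(R), 0 and 17 with SKBG-1(S), and 0 and 39 with DMSO, replicate 1 before replicate 2. That is 5.12 (0.904 to 28.9) and 144 (126 to 165) per 10000 with SKBG-1(R). With SKBG-1(S) it is 0 (up to 31.0) and 42.85 (26.8 to 68.5), and with DMSO 0 (up to 57.1) and 106 (77.7 to 145) per 10000. The means were 74.6 ± 98.3 with SKBG-1(R), 21.4 ± 30.3 with SKBG-1(S) and 53.0 ± 74.9 with DMSO (SD, n = 2 each), so within each treatment the SD exceeded the mean. Among the replicate 2 lists alone, SKBG-1(S) was again the lowest and SKBG-1(R) the highest.

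**Figure D1:**
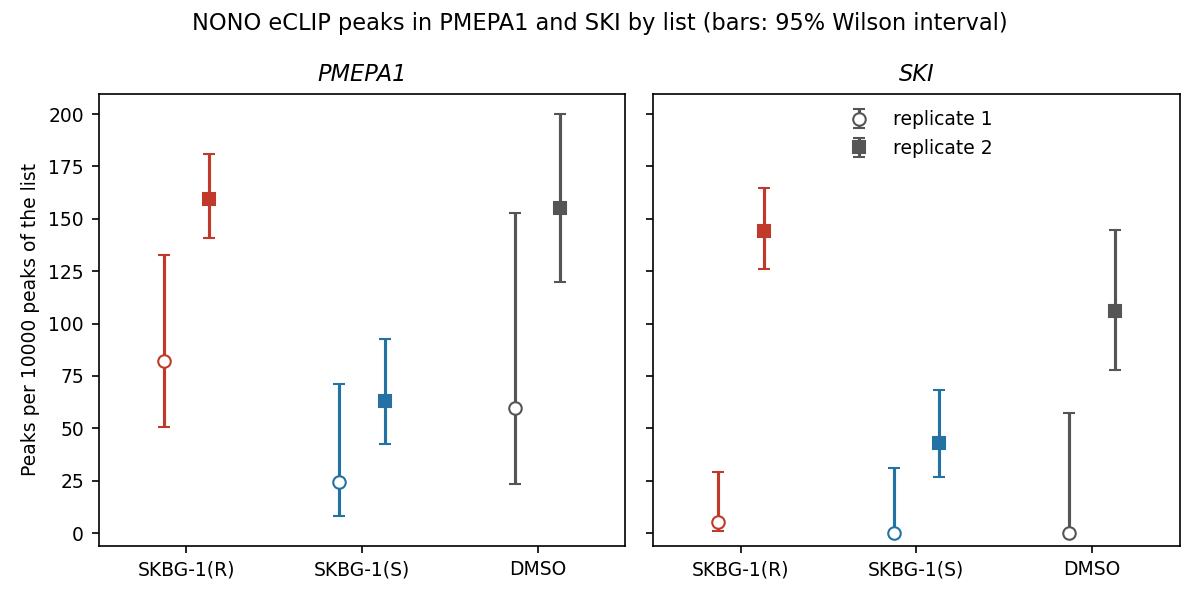
Peaks of PMEPA1 (left) and SKI (right) per 10000 peaks of each list, with 1 point per list and bars for the 95% Wilson interval; open circles are replicate 1 and filled squares replicate 2. PMEPA1 was present in all 6 lists, and SKI had at most 1 peak in any replicate 1 list.

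Whether either compound changed these shares, and whether the stereoisomers differed, was tested by limma on log2 peaks per 10000 (prior count 2) over the 479 genes with at least 10 peaks. Neither gene passed in any comparison at an adjusted p of 0.05, and the share of the 479 genes called was 0% in each comparison. An unadjusted p under 0.05 was reached by 15 genes for SKBG-1(R) against DMSO, 6 for SKBG-1(S) against DMSO and 5 for SKBG-1(R) against SKBG-1(S). A Cochran-Mantel-Haenszel test, which counts every peak as an independent observation, called 73, 9 and 93 genes in these comparisons. Peaks of a gene within a list are not replicates of a treatment, so that test compares lists. Both comparisons against DMSO share its 2 lists.

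For SKBG-1(R) against DMSO, PMEPA1 had a log2 fold change of 0.23 (95% interval −1.67 to 2.14, limma adjusted p = 0.993), the same as the median of 0.23 over all tested genes. SKI had a log2 fold change of 0.76 (−2.24 to 3.76, limma adjusted p = 0.993). The direction of each rests on single lists. Without DMSO replicate 1 the values were −0.42 for PMEPA1 and −1.54 for SKI, and without SKBG-1(R) replicate 2 they were −0.23 and −1.21.

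For SKBG-1(S) against DMSO, PMEPA1 had a log2 fold change of −1.20 (−3.10 to 0.70, limma adjusted p = 1.0), beside a median of 0.14 over all tested genes. The value for SKI was −0.61 (−3.61 to 2.39, limma adjusted p = 1.0). PMEPA1 was lower with SKBG-1(S) in both same-numbered pairs of lists. Without DMSO replicate 2 its value was −0.54, and among peaks of log2 enrichment of at least 4 it turned to 0.35. The Cochran-Mantel-Haenszel test, which counts every peak as independent and so compares lists, gave an adjusted p of 0.004 for PMEPA1 and 0.0515 for SKI. The limma value for SKI turned to 1.69 without DMSO replicate 2 and to 1.08 without SKBG-1(S) replicate 1.

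The stereoisomers were compared at the same dose and time. For SKBG-1(R) against SKBG-1(S), PMEPA1 had a log2 fold change of 1.43 (−0.47 to 3.34, unadjusted p = 0.132, limma adjusted p = 0.995). SKI had 1.37 (−1.63 to 4.37, limma adjusted p = 0.995), and the median over all tested genes was −0.08. The PMEPA1 value was 0.45 with lists of equal length, 0.80 with peaks of log2 enrichment of at least 4 and 2.497 without scaling to list size. Both PMEPA1 values with SKBG-1(R) exceeded both values with SKBG-1(S). For SKI the groups overlapped, and the value turned to −0.60 without SKBG-1(R) replicate 2 and to −0.32 without SKBG-1(S) replicate 1. Both intervals given above hold 0 and also hold large differences in favour of SKBG-1(R). With replicate number as a block, the interval was 0.22 to 2.65 for PMEPA1 and −0.08 to 2.81 for SKI. The limma adjusted p was then 0.661 for each gene. After adjustment, these lists thus show neither that the stereoisomers differ on these genes nor that they act alike. The Cochran-Mantel-Haenszel test gave adjusted p-values of 1.6e-05 for PMEPA1 and 8.3e-06 for SKI here. It counts every peak as independent, so these values compare lists and not treatments. In the replicate 1 lists SKI had 1 peak with SKBG-1(R) and 0 with SKBG-1(S), so its value rests on the replicate 2 lists. In a bulk culture, fewer cells with a transcript, less transcript per cell and less NONO per transcript cannot be told apart from peak lists.

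**Figure D2:**
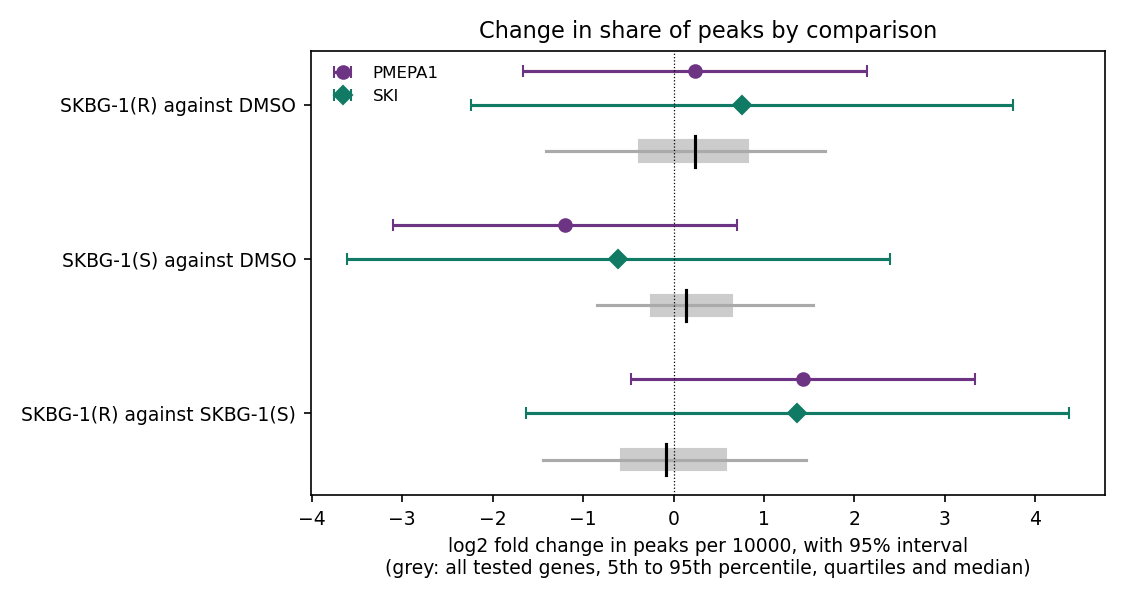
Log2 fold change in peaks per 10000 for PMEPA1 (circles) and SKI (diamonds) in each comparison with 95% limma intervals, above the spread of all 479 tested genes in grey (line, 5th to 95th percentile; box, quartiles; tick, median). All 6 intervals of PMEPA1 and SKI include 0.

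When each list was cut to its 669 peaks with the highest −log10 p, PMEPA1 kept 2 and 11 peaks with SKBG-1(R), 2 and 5 with SKBG-1(S), and 4 and 10 with DMSO. SKI kept 0 and 0 with SKBG-1(R), 0 and 0 with SKBG-1(S), and 0 and 2 with DMSO. Over all lists, most peaks of both genes thus lay outside this cut. In replicate 2 of SKBG-1(R) the median −log10 p of SKI peaks was 7.84, beside 7.08 for the whole list. In replicate 2 of SKBG-1(S) it was 4.12, beside 6.00, and in that of DMSO 5.02, beside 5.60. The highest −log10 p of a SKI peak was 25.4, in SKBG-1(R) replicate 2, where it ranked 987 of 14847. The highest of a PMEPA1 peak was 59.6, also in SKBG-1(R) replicate 2, at rank 142. In DMSO replicate 2 the strongest PMEPA1 peak ranked 10 of 3678.

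Along PMEPA1 the peaks were spread over intron 1 with a dense patch beside exon 1. Over all lists, 4 equal stretches of the intron, each 12.4 kb and counted from exon 1, held 80, 73, 66 and 92 peaks. The median distance of a list's peaks from the 5′ end of the gene was 19376 and 30326 nt with SKBG-1(R), 2222 and 19828 nt with SKBG-1(S), and 15953 and 30082 nt with DMSO. The short lists had the smaller medians in all 3 treatments, and the groups overlapped. The mean of the medians differed by 1833 nt between SKBG-1(R) and DMSO, by −11992 nt between SKBG-1(S) and DMSO, and by 13826 nt between SKBG-1(R) and SKBG-1(S). The exact two-sided permutation test gave p = 0.667 each time, where 2 lists against 2 cannot give less than 0.333.

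**Figure D3:**
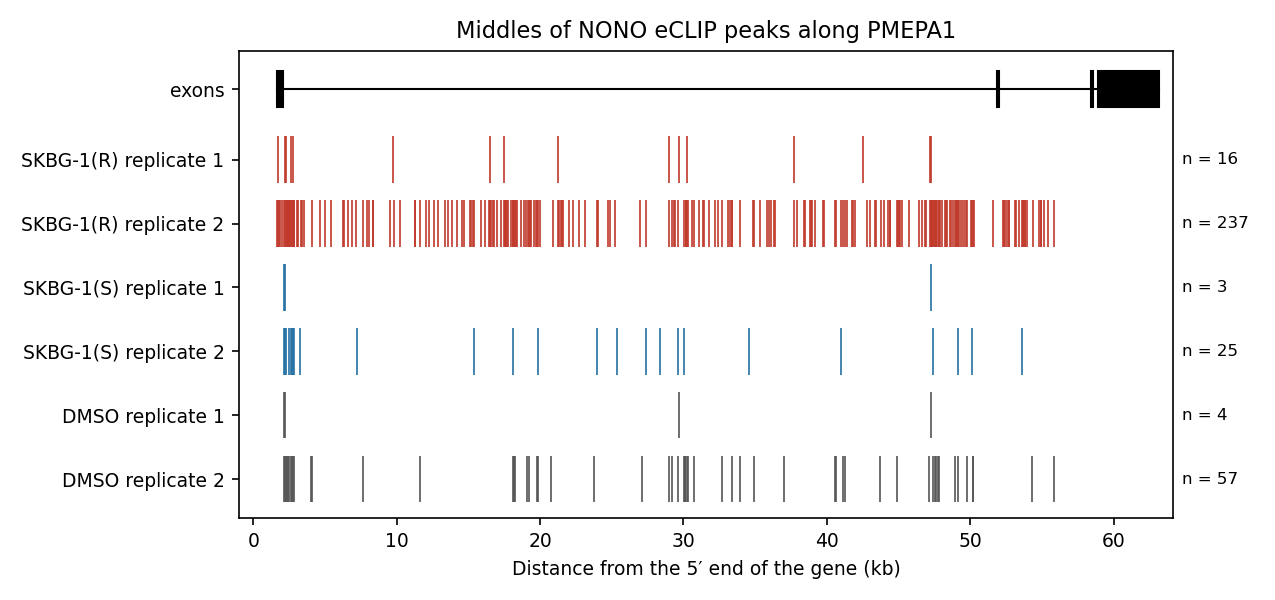
Middles of PMEPA1 peaks by distance from the 5′ end of the gene in kb, with 1 line per peak and 1 row per list under the exons of ENST00000341744.7; the number of peaks stands at the right. Peaks beside exon 1 appear in every row, and the last exons carry none.

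Peaks of all lists that overlapped were merged into regions, 208 for PMEPA1. Of these, 50 held peaks of at least 2 lists, or 24.0%, beside 23.1% of 16402 regions over all genes. A single PMEPA1 region held peaks of all 6 lists, at chr20:57709169-57709456, a class that 101 regions in 64 genes shared over the whole set. It begins 18 nt into intron 1, spans 288 nt and gathered 18 peaks, and the authors class it as intron within 500 nt of a splice site. Its strongest peak had a log2 enrichment over input of 4.58 and 4.63 in the SKBG-1(R) lists, 4.80 and 4.36 in the SKBG-1(S) lists, and 3.40 and 4.59 in the DMSO lists. DMSO replicate 1, the shortest list, was the lowest, and the treatments overlapped.

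Another 2 PMEPA1 regions held peaks of 4 lists. The region at chr20:57708662-57709100 lies 374 nt into intron 1, gathered 21 peaks and was missing from replicate 1 of SKBG-1(S) and of DMSO. Its log2 enrichment was 3.63 and 5.64 with SKBG-1(R), 5.13 with SKBG-1(S) and 5.85 with DMSO. The other, at chr20:57664170-57664313, lies 47294 nt from the start of the gene and was in both SKBG-1(R) lists (3.72 and 4.80) and in replicate 1 of SKBG-1(S) (3.76) and of DMSO (3.75). It abuts a region at chr20:57663864-57664169 that held peaks of all 3 replicate 2 lists, with 4.98 for SKBG-1(R), 4.66 for SKBG-1(S) and 4.34 for DMSO. Between them the adjoining regions were thus covered in all 6 lists.

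Peaks of both SKBG-1(R) lists and of no other list made up 6 PMEPA1 regions, 2.88% of its regions beside 0.848% over all genes. No region was shared by both lists of SKBG-1(S) or of DMSO alone, and the share over all genes was not computed for these. Replicate 1 held only 3 PMEPA1 peaks with SKBG-1(S) and 4 with DMSO. In each of these 2 lists, 3 of them overlapped peaks of SKBG-1(R) replicate 2. Of the 6 regions of the SKBG-1(R) pair, 5 were intronic, at chr20:57673793-57673886, chr20:57690248-57690334, chr20:57693948-57694101, chr20:57694931-57695073 and chr20:57701702-57701851. The remaining region, chr20:57709751-57709844, lies in the 5′ untranslated part of exon 1 and had a log2 enrichment of 4.30 in replicate 1 and 3.41 in replicate 2 of SKBG-1(R). All 6 peaks in PMEPA1 exon 1 came from the SKBG-1(R) lists, and only 1 of these was of replicate 1. Replicate 1 and replicate 2 of SKBG-1(R) held 4.68% and 69.3% of all PMEPA1 peaks. SKBG-1(R) replicate 2 is the longest list, and its PMEPA1 peaks covered 23.2% of intron 1, against 3.44% for replicate 2 of SKBG-1(S) and 7.28% for that of DMSO. Of the 208 regions, 149 were in SKBG-1(R) replicate 2 alone, or 71.6%, beside 60.6% over all genes. With only peaks of log2 enrichment of at least 4, no PMEPA1 region was left that only the SKBG-1(R) pair of lists shared. Ranked by the enrichment in the weakest list that held them, the 5 strongest PMEPA1 regions of at least 2 lists all held peaks of SKBG-1(R) replicate 2 and DMSO replicate 2. The first of these, chr20:57663658-57663853, had a log2 enrichment of 4.68 with SKBG-1(R) and 4.72 with DMSO.

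SKI had 210 regions, of which 41 held peaks of at least 2 lists, or 19.5%. None held peaks of more than 3 lists, and 163, or 77.6%, were in SKBG-1(R) replicate 2 alone. All 3 replicate 2 lists had peaks in 8 regions, 3.81% of SKI regions beside 3.25% over all genes. The strongest of these in its weakest list was the noncoding exon shown above, whose region (chr1:2247979-2248075) had a log2 enrichment of 4.66 with SKBG-1(R), 3.86 with SKBG-1(S) and 3.80 with DMSO. Next came chr1:2233148-2233260, 4509 nt from the start of the gene, with 5.34 with SKBG-1(R), 3.60 with SKBG-1(S) and 4.19 with DMSO. Of regions in at least 2 lists, chr1:2267878-2268035 had the highest weakest value, with 4.49 with SKBG-1(R) and 4.21 with DMSO in replicate 2. The region over the SKI start codon (chr1:2228699-2228791) was the one region in both SKBG-1(R) lists, with 3.75 in replicate 1 and 3.35 in replicate 2, and no other list had a peak there. Regions of that pair alone were 0.476% of SKI regions, below the 0.848% over all genes. The start codon region held the only SKI peak of any replicate 1 list.

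SKI peaks were denser near exon 1. The 4 equal stretches of intron 1, each 18.3 kb, held 105, 42, 73 and 49 peaks, so the stretch next to exon 1 had 39.0% of them. In the replicate 2 lists that stretch had 36.6% of 213 peaks with SKBG-1(R), 52.9% of 17 with SKBG-1(S) and 46.2% of 39 with DMSO. It was the fullest stretch in each of these 3 lists.

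**Figure D4:**
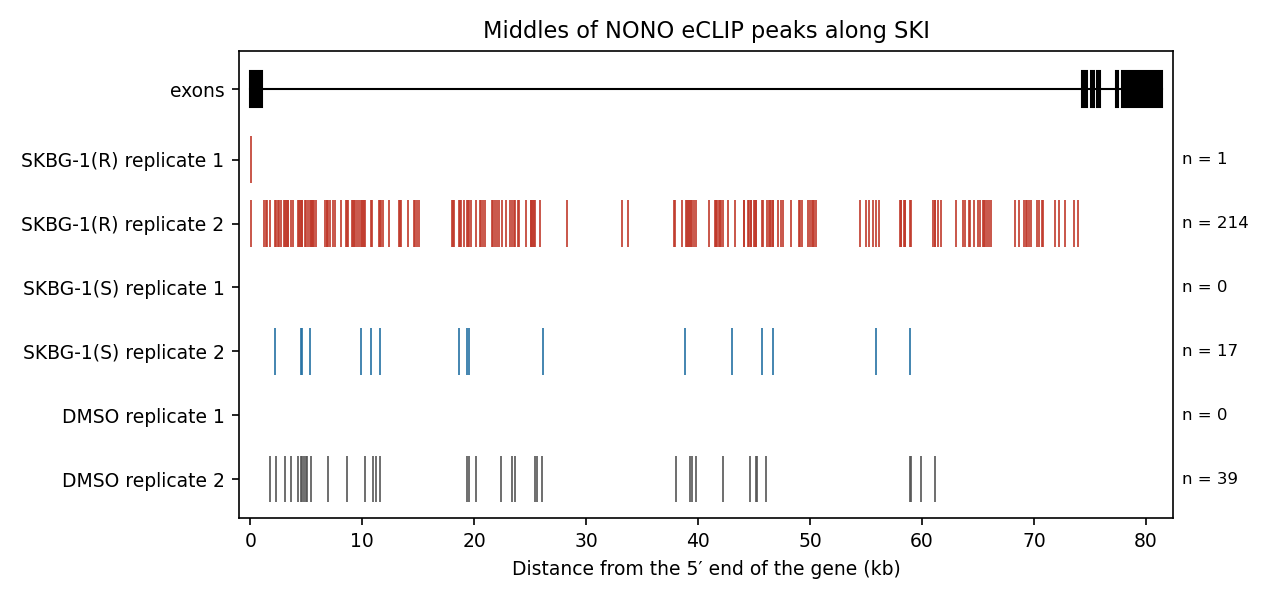
Middles of SKI peaks by distance from the 5′ end of the gene in kb, drawn as for PMEPA1 under the exons of ENST00000378536.4. The replicate 1 rows are empty but for 1 SKBG-1(R) peak at the start of the gene, and the 3 replicate 2 rows fill intron 1.

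Peaks of the shorter lists mostly fell on peaks of SKBG-1(R) replicate 2. That was so for 14 of 16 PMEPA1 peaks of SKBG-1(R) replicate 1 (87.5%, beside 54.4% of the whole list), 22 of 25 of SKBG-1(S) replicate 2 (88.0%, beside 61.9%) and 52 of 57 of DMSO replicate 2 (91.2%, beside 63.5%). For SKI it was so for 15 of 17 peaks of SKBG-1(S) replicate 2 (88.2%) and 33 of 39 of DMSO replicate 2 (84.6%). In the other direction, of the 237 PMEPA1 peaks of SKBG-1(R) replicate 2, 31 (13.1%) overlapped replicate 2 of SKBG-1(S) and 64 (27.0%) that of DMSO. Of its 214 SKI peaks, 21 (9.81%) overlapped replicate 2 of SKBG-1(S) and 38 (17.8%) that of DMSO. Over the whole list the shares were 20.3% for SKBG-1(S) and 18.8% for DMSO, so for both genes the share on SKBG-1(S) replicate 2 peaks was below that of the list.

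The enrichment of both genes' peaks was close to that of their lists, apart from the 3 PMEPA1 peaks of SKBG-1(S) replicate 1. The median log2 enrichment of PMEPA1 peaks was 3.77 and 3.82 with SKBG-1(R), 4.42 and 3.70 with SKBG-1(S), and 3.52 and 3.44 with DMSO. The list medians were 3.77 and 3.75, 3.76 and 3.64, and 3.72 and 3.59 in that order of treatments. SKI peaks of the replicate 2 lists had medians of 3.90 with SKBG-1(R), 3.75 with SKBG-1(S) and 3.59 with DMSO. Per kb of gene PMEPA1 had 5.42 peaks (rank 12 of 431 genes) and SKI 3.33 (rank 27), beside a median of 0.490.

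**Figure D5:**
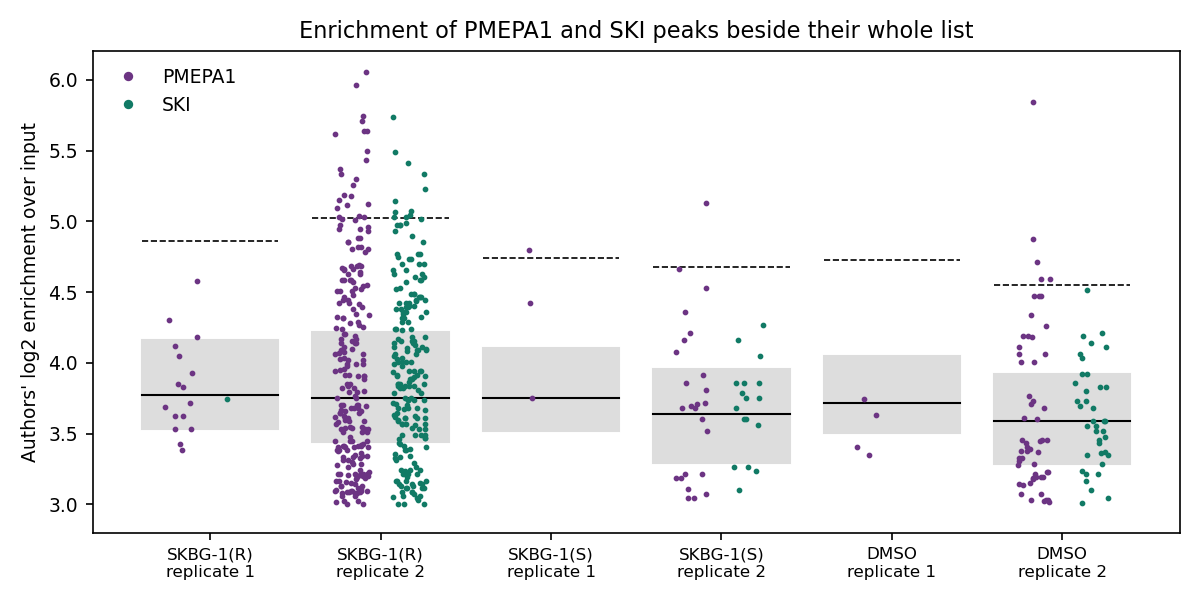
The authors' log2 enrichment over input of each PMEPA1 and SKI peak by list, over the quartiles (grey box), median (line) and 95th percentile (dashed line) of all peaks of the list. The lists start at the authors' minimum of 3, and PMEPA1 medians of 3.44 to 4.42 stand beside list medians of 3.59 to 3.77.

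By the authors' classes, introns far from splice sites held 75.0 and 86.5% of PMEPA1 peaks with SKBG-1(R), 33.3 and 76.0% with SKBG-1(S), and 50.0 and 82.5% with DMSO. For whole lists the shares were 46.7 and 71.8%, 50.4 and 59.5%, and 52.0 and 68.7%. For SKI the replicate 2 lists gave 97.7% with SKBG-1(R), 100% with SKBG-1(S) and 100% with DMSO.

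The genes whose log2 peaks per 10000 ran most like PMEPA1 over the 6 lists were PIP5K1C (Pearson r = 0.904), BRD1, AGPAT3, SAMD11 and CASZ1, and SKI came in at rank 12 with r = 0.826. Those most like SKI were MACROD1 (r = 0.979), CHID1, DVL1, peaks under a joint PDCD6 and AHRR name, and SHC2. DVL1 encodes a Dishevelled protein of Wnt signalling and had 1 and 32 peaks with SKBG-1(R), 0 and 7 with SKBG-1(S), and 0 and 9 with DMSO. The points of these correlations share lists, list length and replicate number, so the values only describe a shared pattern of short and long lists.

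Among other genes of TGF-beta signalling, the 3 tested inhibitors SIN3A, SMAD7 and MECOM had 41, 13 and 10 peaks over the 6 lists, beside 342 for PMEPA1 and 271 for SKI. PMEPA1 and SKI were chosen with earlier results of these data known, so these totals do not test whether they stand out. The totals are not set against gene length, and 451 of the 613 peaks of PMEPA1 and SKI were in SKBG-1(R) replicate 2. Of 25 ligands, latency proteins and activators 1 had a peak, LTBP4, and of 15 receptors and co-receptors ACVR2B and BMPR1A did, with none tested. Of 21 SMADs and SMAD cofactors 5 had a peak, among them SMAD1 with 6 peaks and SMAD2 with 3, and none was tested. Of 31 other inhibitors 8 had a peak and 3 were tested, and none of them passed the test in either direction. SIN3A, a scaffold of the histone deacetylase complex that SKI recruits, had 3 and 16 peaks with SKBG-1(R), 2 and 9 with SKBG-1(S), and 1 and 10 with DMSO. SMAD7, the inhibitory SMAD that targets the receptor for degradation, had 1 and 2 with SKBG-1(R), 1 and 2 with SKBG-1(S), and 0 and 7 with DMSO. MECOM, a transcriptional repressor that binds SMAD3, had 0 and 3 with SKBG-1(R), 0 and 3 with SKBG-1(S), and 0 and 4 with DMSO. The median log2 fold change of the 3 was −0.51 for SKBG-1(R) against DMSO, −0.07 for SKBG-1(S) against DMSO and −0.44 for SKBG-1(R) against SKBG-1(S).

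Of 26 TGF-beta target genes 4 had a peak, and ATF3 and SMAD7 were tested without a call. ATF3, a stress-induced transcription factor, had 1 and 5 peaks with SKBG-1(R), 2 and 3 with SKBG-1(S), and 0 and 0 with DMSO. Both DMSO lists were at 0, so no fold is given; against DMSO the limma adjusted p was 0.993 with SKBG-1(R), and with SKBG-1(S) it was 1.0. Of 30 androgen-induced genes other than PMEPA1, 9 had a peak and 3 were tested with none called. ZBTB16, a transcription factor, had 8 and 18 peaks with SKBG-1(R), 0 and 10 with SKBG-1(S), and 0 and 15 with DMSO. SPDEF, a prostate epithelial transcription factor, had 2 and 29 with SKBG-1(R), 4 and 12 with SKBG-1(S), and 1 and 7 with DMSO. FKBP5, a co-chaperone induced by androgen, had 3 and 0 with SKBG-1(R), 3 and 3 with SKBG-1(S), and 1 and 2 with DMSO.

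Peak lists do not measure expression, and a marker without a peak is not shown to be absent. Of 12 luminal markers 4 had peaks, and of 16 markers of other cell types 0 did. In the whole set only 1689 gene names had a peak, and the share over all genes was not computed. These counts therefore do not test the identity of the cells. GRHL2, an epithelial transcription factor, had 3 and 12 peaks with SKBG-1(R), 2 and 8 with SKBG-1(S), and 1 and 9 with DMSO. All 10 peaks of CDH1, the E-cadherin gene, were in SKBG-1(R) replicate 1.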

How the data were processed

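NONO eCLIP peak lists from 6 immunoprecipitations, each with its own input (12 libraries), were analysed. The submitters' processing notes list STAR 2.4.0i and cutadapt 1.9; which program called peaks is not given in the sources used here. Values deposited by the authors for each peak are a −log10 p and a log2 enrichment over input, both with a minimum of 3. The authors deposited 1 list per replicate, annotated to genes and classes. The notes name hg19 and hg38; 9797 of 9850 annotated transcripts (99.5%), and all 11 of PMEPA1 and SKI, had GENCODE 29 (GRCh38) coordinates within 1 nt.

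From these lists, peaks per 10000 were computed and tested with limma 3.58.1 (R 4.3.3; trended prior variance, prior count 2 scaled to list size, all 6 lists in 1 fit, 479 genes with at least 10 peaks, Benjamini-Hochberg threshold 0.05). This fit was first run on simulated data as a check. The simulated lists held no effect shared by replicate number, so the run does not show what size of change these lists could reveal. Median distances were compared by an exact two-sided permutation test (SciPy 1.17.1). Peaks overlapped when they shared 1 nt on 1 strand. Sequences came from GENCODE 29 transcripts and RefSeq GRCh38.p14. Named genes were PMEPA1 and SKI, tested genes of the lists, the 5 most alike genes and regions by the lists that held them; the region beside the shared 4-list region and exonic peaks were added after their values were seen. PMEPA1, SKI and the gene lists were chosen with earlier results of these data known. Groups and replicate numbers came from the sample titles. The input libraries entered only through the authors' enrichment. Alternatives covered prior count, scaling, filters, peak limits, merging, the replicate block and leaving out each list. The values of a luminal marker are not reported here.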

Additional observations from a re-analysis of the deposited data

How the results depend on the processing

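For PMEPA1 and SKI, limma called neither gene under any alternative tried, with adjusted p-values between 0.601 and 1.0. The Cochran-Mantel-Haenszel test over peaks gave calls for PMEPA1 in SKBG-1(S) against DMSO (log2 value −1.31) and SKBG-1(R) against SKBG-1(S) (1.40), and for SKI in SKBG-1(R) against SKBG-1(S) (1.78); it called 73, 9 and 93 genes for SKBG-1(R) against DMSO, SKBG-1(S) against DMSO and SKBG-1(R) against SKBG-1(S), where limma called 0 each time. Leaving out SKBG-1(R) replicate 1 gave 23 calls for SKBG-1(R) against DMSO and 24 for SKBG-1(R) against SKBG-1(S), neither gene among them. Other alternatives gave at most 1 call. The Cochran-Mantel-Haenszel calls count every peak as independent and so compare lists, not treatments.

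For SKBG-1(R) against DMSO, PMEPA1 turned to −0.11 with a −log10 p of at least 5 and to −0.23 with lists of equal length; for SKBG-1(S) against DMSO it turned to 0.35 with a log2 enrichment of at least 4. The cause was not tested. Without scaling to list size, the median of all genes for SKBG-1(R) against DMSO moved to 1.10, beside 0.23 with scaling, and PMEPA1 stood at 1.80; TMM scaling moved that median to 0.35. Leaving out each list in turn gave −0.42 to 0.89, −1.85 to −0.54 and 0.82 to 2.05 for PMEPA1 in SKBG-1(R) against DMSO, SKBG-1(S) against DMSO and SKBG-1(R) against SKBG-1(S). For SKI the same gave −1.54 to 3.06, −2.91 to 1.69 and −0.60 to 3.34. A treatment left with 1 list was assumed to vary like the others. SKI had too few peaks for a test with lists of equal length.

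The PMEPA1 median distance in SKBG-1(R) against DMSO turned to −2862 nt with a log2 enrichment of at least 4, −6865 nt with lists of equal length and −6092 nt with peaks merged within 100 nt, and in SKBG-1(R) against SKBG-1(S) to −966 nt when merged. Leaving out a list gave −5232 to 8898 nt, −20796 to −3189 nt and 5022 to 22629 nt in SKBG-1(R) against DMSO, SKBG-1(S) against DMSO and SKBG-1(R) against SKBG-1(S). A log2 enrichment of at least 4 left 100 PMEPA1 and 98 SKI regions, with 11 and 7 in at least 2 lists.

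With 2 pairs of lists, the replicate numbers are not shown to pair the samples (r of 0.42 to 0.58 over 479 genes between differences of replicate 2 from replicate 1). With the replicate block, PMEPA1 in SKBG-1(R) against SKBG-1(S) kept its 1.43 with an unadjusted p of 0.0253 and a limma adjusted p of 0.661. In SKBG-1(S) against DMSO, PMEPA1 kept its −1.20 with an unadjusted p of 0.0527 and a limma adjusted p of 0.964. SKI stayed uncalled, and 1 gene was called for SKBG-1(R) against DMSO.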
